A study of Mus musculus with 9 samples.

Results

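The expression of 10 of the 55342 genes named in the files was followed: Lpo, Ltf, Pigr, Bpifa1, Bpifa2, Pip, Lyz1, Muc5b, Bhlha15 and Wfdc18. They are secretory genes known from salivary and other exocrine glands, together with Bhlha15, a transcription factor of secretory cells. They were chosen by name with their measured levels and strain differences in these 9 libraries known, so those differences are described with their spread and carry no p-value. Polyadenylated RNA was measured in bulk in 9 libraries from labial mucosa biopsies of mice, with 3 libraries for each of the strains B6, Tac111 and Tac146. All mice had been infected before the biopsy. The sources used here do not give the agent, the ages, the alleles carried by each strain, or whether the libraries of a strain are separate animals. The spread and the p-values below therefore measure differences between samples, which may be technical. In the labels the cell type is ILC1, an innate lymphoid cell, for B6 and T cells for Tac111 and Tac146. The RNA came from mucosa biopsies, and the T cell gene Cd3e had 0 counts in the Tac111 libraries labelled T cells. If the labels mark a difference between the samples, its effect and that of strain cannot be told apart in comparisons with B6.

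Saliva and other mucosal secretions carry a shared set of defence proteins made by acinar and duct cells of glands. Lactoperoxidase, a heme enzyme encoded by Lpo, uses hydrogen peroxide to oxidise thiocyanate to hypothiocyanite, which inhibits bacteria, while lactoferrin (Ltf) binds iron, lysozyme (Lyz1) cuts bacterial cell walls and the polymeric immunoglobulin receptor (Pigr) carries IgA across the epithelium. Mucins such as Muc5b form the gel in which these proteins are held, and the transcription factor Bhlha15, also called MIST1, maintains the secretory machinery of acinar cells.

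The libraries held 27192359 to 46456500 expected counts, and a level in CPM is a gene's count over its library's total, scaled by TMM factors, given as mean ± SD over 3 libraries of a strain. Squamous epithelial keratins were abundant, with Krt13 at 27992 to 48355 CPM and Krt4 at 23168 to 43352 CPM. The leukocyte gene Ptprc stood at 4.49 to 12.5 CPM, the T cell gene Cd3e at 0 to 1.69 CPM with no count in Tac111, and the ILC1 and natural killer cell gene Ncr1 at 0 to 0.463 CPM, so markers of the labelled cells were scarce beside those of squamous mucosa. Among genes of lymphocyte development, Il2rg summed to 509, 11 and 539 counts in B6, Tac111 and Tac146, Rag1 to 3, 4 and 205 and Rag2 to 0, 173 and 0. In a principal component analysis, component 1 (46.5% of the variance) set Tac111 apart, and component 2 (19.3%) set Tac146 replicate 4 apart from the other libraries.

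The label of gland secretion was checked against a list of 26 other gland secretions. In all 9 libraries 13 of the 26 were at 0, among them Smgc, Dcpp1, Dcpp2, Dcpp3, Prb1 and Prh1, abundant products of mouse salivary glands, and Muc5ac. The gland genes that were present included Fcgbp at 34.7 to 139 CPM, Egf at 14.6 to 21.4 CPM, Car6 at 6.85 to 20.6 CPM and Amy1 at 7.69 to 13.5 CPM. The 10 genes are therefore called secretory genes below, and no gland is named as their source. In bulk RNA, fewer cells of a type and less RNA per cell cannot be told apart.

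The promoters of 2 of these genes are shown because Lpo and Bhlha15 were the secretory genes whose levels ran most closely together over the libraries, and because proteins of the family of Bhlha15 bind the letters CANNTG. They are RefSeq sequences on GRCm38.p6, 250 bases before to 50 bases after the start of the gene, read 5′ to 3′ on the strand of the gene. The Lpo window lies at chr11:87826065-87826364 on the minus strand, inside the GENCODE M21 span of the gene, and the Bhlha15 window at chr5:144190036-144190335 on the plus strand. Capitals mark CANNTG, searched on both strands, on which it reads the same.
Lpo: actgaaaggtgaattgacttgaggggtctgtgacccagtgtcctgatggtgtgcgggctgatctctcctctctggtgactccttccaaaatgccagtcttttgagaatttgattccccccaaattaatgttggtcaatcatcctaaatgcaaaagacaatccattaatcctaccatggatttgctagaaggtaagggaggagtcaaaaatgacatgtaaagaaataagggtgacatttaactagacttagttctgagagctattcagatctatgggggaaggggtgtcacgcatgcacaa
Bhlha15: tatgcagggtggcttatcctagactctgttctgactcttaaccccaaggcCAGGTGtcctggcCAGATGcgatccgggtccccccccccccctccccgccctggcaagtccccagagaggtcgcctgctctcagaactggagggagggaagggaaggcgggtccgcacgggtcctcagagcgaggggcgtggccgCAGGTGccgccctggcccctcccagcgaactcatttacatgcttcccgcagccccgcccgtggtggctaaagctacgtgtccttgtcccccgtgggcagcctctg
The Lpo window held no CANNTG and the Bhlha15 window held 3. The letters occurred in 72.3% of all 32851 promoters in the table and in 5 of the 9 secretory genes with a promoter there. A second motif, TTCNNNGAA, which STAT factors bind, occurred in 8.30% of all promoters and in 2 of these 9, Pigr and Pip, searched on both strands and not overlapping CANNTG. These matches describe letters only.

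Lpo, at chr11:87806428-87828289, differed most between strains, as a ratio of fitted levels, among the 5 genes that could be tested. It was counted 40, 6 and 16 times in B6 replicates 1, 2 and 3 (0.954, 0.209 and 0.530 CPM), and 4, 3 and 10 times in Tac111 replicates 1, 2 and 3 (0.128, 0.108 and 0.291 CPM). In Tac146 replicates 2, 3 and 4 it was counted 234, 214 and 388 times (5.17, 6.57 and 8.55 CPM). The 3 Tac146 libraries all lay above the 6 others, whereas the ranges of B6 and Tac111 overlapped. The means were 0.564 ± 0.374 CPM in B6, 0.176 ± 0.10 CPM in Tac111 and 6.76 ± 1.70 CPM in Tac146 (SD, n = 3 each). The fitted level in Tac146 was 11.4-fold that of B6 (log2 fold change 3.51, SE 0.40) and 36.7-fold that of Tac111, for which the log2 fold change of Tac111 against Tac146 was -5.20 (SE 0.48). Tac111 against B6 differed by -1.69 on the log2 scale (SE 0.58), a value resting on 17 counts in Tac111 and 62 in B6. Leaving out B6 replicate 1, which held 40 of those 62 counts, gave -1.03 for Tac111 against B6 and 4.17 for Tac146 against B6, and over all libraries left out in turn the first ran from -2.29 to -1.03. Leaving out Tac111 replicate 3 gave -5.79 for Tac111 against Tac146. By the size of its fold change Lpo had rank 11 among the 32 genes that edgeR called higher in Tac146 than in B6, and rank 39 among the 1036 called lower in Tac111 than in Tac146.

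**Figure D1:**
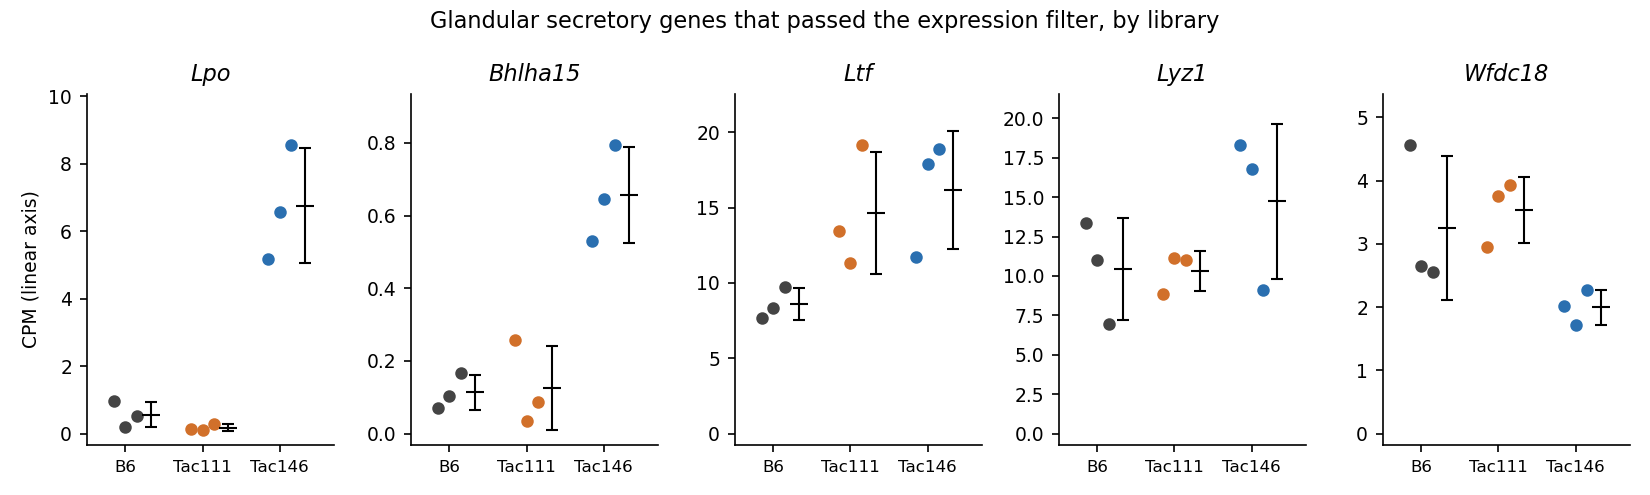
Level of each of the 5 secretory genes that passed the filter on low counts, in CPM on a linear axis from 0, by strain. Each point is a library (3 per strain), and the bar beside them gives mean ± SD, with axes that differ between panels. The Lpo points of Tac146 (5.17 to 8.55 CPM) lie above all others, and those of Wfdc18 in Tac146 (1.72 to 2.27 CPM) lie below all others.

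None of the other tested enzymes and partners of the peroxidase system was called. Of 12 genes in that list 5 were tested, and edgeR called 0 of them in each of the 3 comparisons (adjusted p threshold 0.05). Over all tested genes it called 3.81% in Tac111 against B6, 0.303% in Tac146 against B6 and 8.89% in Tac111 against Tac146. For 5 genes, 0 calls lie near these shares, so nothing is read from them. At an unadjusted p under the same threshold 0, 1 and 1 of the 5 would pass for Tac111 against B6, Tac146 against B6 and Tac111 against Tac146. Duox1, which makes the hydrogen peroxide that lactoperoxidase uses, had means of 61.4 CPM (B6), 53.9 CPM (Tac111) and 70.5 CPM (Tac146). Its maturation factor Duoxa1 stood at 28.1, 27.8 and 32.0 CPM, with a log2 fold change of 0.19 (SE 0.12, adjusted p 0.782 by edgeR) for Tac146 against B6. Duox2, the second such oxidase, stood at 0.669, 1.25 and 1.19 CPM in B6, 0.996, 1.63 and 1.08 CPM in Tac111 and 1.33, 2.31 and 2.37 CPM in Tac146, the largest fold change of the list in Tac146 against B6 (0.96, SE 0.32, adjusted p 0.540 by edgeR), and was chosen for mention after its values were seen. The 2 related peroxidase genes beside Lpo on chromosome 11 were at or near 0. Mpo, the myeloperoxidase of neutrophils (chr11:87793581-87804413), was counted 0, 0 and 1 times in B6, 4, 1 and 2 times in Tac111 and 5, 3 and 2 times in Tac146. Epx, the peroxidase of eosinophils (chr11:87864000-87875536), had no count in any library. None of the 3083 stretches of 50 bases in Lpo transcripts occurred in another annotated gene.

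Bhlha15 (chr5:144190286-144194441) was lower in abundance and, like Lpo, highest in Tac146. It was counted 3, 3 and 5 times in B6, 8, 1 and 3 times in Tac111, and 24, 21 and 36 times in Tac146 replicates 2, 3 and 4. All 3 Tac146 libraries lay above the 6 others, at 0.656 ± 0.132 CPM against 0.114 ± 0.0477 CPM in B6 and 0.127 ± 0.115 CPM in Tac111 (SD, n = 3 each). The log2 fold change was 2.54 (SE 0.51) for Tac146 against B6, 0.21 (SE 0.67) for Tac111 against B6 and -2.32 (SE 0.51) for Tac111 against Tac146. Without Tac111 replicate 1, which held 8 of the 12 counts of that strain, the last was -3.29. The ratio of summed counts per library size was 6.03 for Tac146 to B6, with an exact 95% interval of 3.20 to 12.6, which covers counting error only. Over the 9 libraries the log2(CPM + 1) values of Bhlha15 and Lpo had a Pearson r of 0.934, a description in which the libraries share strain and depth. Within Tac146 both genes were highest in replicate 4. In B6, replicate 1 had the highest level of Lpo and the lowest of Bhlha15. In Tac111, Lpo was highest in replicate 3 and Bhlha15 in replicate 1.

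Bhlha15 is also known from plasma cells, so their markers are given beside it. Of 11 plasma cell and IgA genes, Jchain stood at 0.0220 to 0.174 CPM, Igkc at 0 to 0.313 CPM, Mzb1 at 0 to 0.246 CPM and Pou2af1 at 0 to 0.0662 CPM. Ighm (6.19 to 10.6 CPM) and Irf4 (3.08 to 6.59 CPM) stood above Bhlha15 and were not called. Derl3 had means of 0.355, 0.174 and 0.473 CPM in B6, Tac111 and Tac146. Its log2 fold change for Tac111 against Tac146 was -1.44 (SE 0.46, adjusted p 0.0696 by edgeR), in the direction of Bhlha15. The list summed to 541 to 621 CPM (B6), 570 to 595 CPM (Tac111) and 544 to 709 CPM (Tac146), most of it from Sdc1, which squamous epithelium also expresses (470 to 618 CPM). EdgeR called 1 of the 7 tested genes of the list in Tac111 against Tac146, where 8.89% of all tested genes were called. It was Igha, the IgA heavy chain, which was lower in Tac111 than in Tac146 (0.287 against 0.757 CPM, log2 fold change -1.37, SE 0.32, adjusted p 0.0288 by edgeR). In B6, where Bhlha15 was low, Igha stood at 0.645 CPM. Igkc was counted 2, 9 and 4 times in B6 and 0 times in every Tac111 and Tac146 library. Means in B6, Tac111 and Tac146 were 0.114, 0.0929 and 0.0323 CPM for Jchain and 0.0380, 0.0310 and 0.00737 CPM for Pou2af1. Mzb1 was highest in Tac146, at 0.0286, 0.101 and 0.141 CPM. Prdm1, a plasma cell and epithelial regulator, stood at 51.1, 45.3 and 59.7 CPM in B6, Tac111 and Tac146. The part of plasma cells in the level of Bhlha15 was not tested.

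Ltf, at chr9:111019271-111042767, separated B6 from both other strains. It was counted 321, 239 and 294 times in B6, 420, 313 and 658 times in Tac111, and 530, 583 and 858 times in Tac146. The B6 libraries (7.66 to 9.74 CPM) lay below all 6 others, and those of Tac111 (11.3 to 19.1 CPM) and Tac146 (11.7 to 18.9 CPM) overlapped. Over all tested genes, libraries did not overlap for 29.6% in Tac111 against B6 and 12.6% in Tac146 against B6. Means were 8.57 ± 1.06, 14.6 ± 4.04 and 16.2 ± 3.89 CPM in B6, Tac111 and Tac146 (SD, n = 3 each). Side by side, and sharing the B6 libraries, the log2 fold changes were 0.78 (SE 0.22) for Tac111 and 0.92 (SE 0.22) for Tac146, and Tac111 against Tac146 differed by -0.14 (SE 0.22). EdgeR called none of these differences.

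Lactoferrin is also a granule protein of neutrophils. Of 13 neutrophil genes 7 were tested, and the defining genes Ly6g (0 in all 9 libraries), Elane (at most 0.0477 CPM), Camp (at most 0.110 CPM), Ngp (at most 0.176 CPM) and Mpo were at or near 0. The list summed to 10.3 to 27.0 CPM in B6, 8.84 to 10.6 CPM in Tac111 and 39.8 to 164 CPM in Tac146, the highest being Tac146 replicate 4. In Tac146 most of that sum came from S100a8 and S100a9, calprotectin subunits that stressed squamous epithelium also makes. EdgeR called S100a9 (log2 fold change -5.01, SE 0.83, adjusted p 0.00701), S100a8 (-3.30, SE 0.71, adjusted p 0.0236), the chemokine receptor Cxcr2 (-1.12, SE 0.27, adjusted p 0.0320) and the protease Mmp9 (-1.55, SE 0.23, adjusted p 0.00368) lower in Tac111 than in Tac146. Of these Mmp9 was also called lower in Tac111 than in B6 (-1.33, SE 0.23, adjusted p 0.0109 by edgeR). The genes of the list did not share an order of strains. Means in B6, Tac111 and Tac146 were 0.137, 0.340 and 0.203 CPM for Mmp8 and 0.0110, 0.0996 and 0.0675 CPM for Retnlg. They were 0, 0.0551 and 0.0690 CPM for Ngp and 0.0110, 0.0741 and 0.0822 CPM for Mpo. These genes, at few counts, were lowest in B6, as was Ltf. Csf3r, Lcn2 and Camp, like the called genes, had their lowest mean in Tac111, and Elane was counted in B6 alone. The part of neutrophils in the level of Ltf was not tested.

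Lyz1 (chr10:117287797-117292868) showed no separation of strains. Its expected counts were 560.12, 316 and 209.95 in B6, 277.11, 308.45 and 378.1 in Tac111 and 826.74, 546.96 and 413.46 in Tac146. Libraries of the 3 strains overlapped throughout, with means of 10.4 ± 3.24, 10.3 ± 1.26 and 14.7 ± 4.92 CPM (SD, n = 3 each). The log2 fold changes were -0.02 (SE 0.28) for Tac111 against B6, 0.49 (SE 0.27) for Tac146 against B6 and -0.51 (SE 0.27) for Tac111 against Tac146. The counts were fractional because RSEM divides shared reads, and 195 of the 1214 stretches of 50 bases in Lyz1 transcripts (16.1%) also occur in its neighbour Lyz2, the lysozyme of macrophages (chr10:117277331-117282321). Per kilobase of exon, Lyz2 stood at 96.9, 75.5 and 86.7 CPM per kb in B6, Tac111 and Tac146 and Lyz1 at 8.26, 8.18 and 11.7, so the level of Lyz1 is uncertain.

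Wfdc18 (chr11:83709015-83711348), which encodes a small secreted protein with a WAP domain known from mammary and other glands, was lowest in Tac146, where Lpo was highest. It was counted 191, 76 and 77 times in B6, 92, 104 and 135 times in Tac111 and 91, 56 and 103 times in Tac146. The Tac146 libraries (1.72 to 2.27 CPM) lay below all 6 others, and B6 replicate 1 was the highest at 4.56 CPM. The means were 3.25 ± 1.13, 3.54 ± 0.521 and 2.00 ± 0.275 CPM in B6, Tac111 and Tac146 (SD, n = 3 each). The log2 fold change was -0.71 (SE 0.24) for Tac146 against B6, 0.11 (SE 0.24) for Tac111 against B6 and 0.82 (SE 0.24) for Tac111 against Tac146. Its Pearson r over the 9 libraries was -0.698 with Lpo and -0.811 with Bhlha15, values that include the differences between strain means. Within each strain Wfdc18 and Lpo were highest in the same library. These were B6 replicate 1, Tac111 replicate 3 and Tac146 replicate 4.

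Markers of skin and mammary glands are given beside Wfdc18. The wax synthases of sebaceous glands were lower in Tac146 than in Tac111, Awat1 at 28.0 against 79.9 CPM (log2 fold change 1.51, SE 0.36, adjusted p 0.0336 by edgeR) and Awat2 at 3.02 against 9.83 CPM (1.69, SE 0.37, adjusted p 0.0251 by edgeR). These were 2 of the 8 tested sebaceous genes, and the lipid enzymes Scd1 and Elovl3, the most abundant of the list, were not called. The sebaceous list summed to 1186 to 2273 CPM (B6), 1257 to 2229 CPM (Tac111) and 812 to 1671 CPM (Tac146). The mammary list of 6 genes summed to at most 0.552 CPM in any library, and Csn1s1 and Csn1s2a, casein genes, were at 0 in all of them, and Lalba, a milk protein gene, reached at most 0.0361 CPM. Its only tested gene, Csn3, another casein, was higher in Tac111 than in Tac146 (log2 fold change 1.84, SE 0.49, adjusted p 0.0448 by edgeR). The part of these glands in the level of Wfdc18 was not tested.

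The other 5 secretory genes did not pass the filter on low counts and were not tested. Bpifa2, a parotid secretory protein of the BPI fold family (chr2:154008265-154016079), was counted 3, 2 and 2 times in B6, 6, 8 and 14 times in Tac111 and 12, 7 and 15 times in Tac146. All B6 libraries lay below the 6 others. The ratio of summed counts per library size was 4.32 for Tac111 to B6 (exact 95% interval 1.85 to 11.7) and 3.98 for Tac146 to B6 (1.74 to 10.6), which share the B6 libraries and cover counting error only. Pigr (chr1:130826684-130852249) was counted 2, 3 and 1 times in B6, 3, 1 and 10 times in Tac111 and 6, 2 and 6 times in Tac146, and its libraries overlapped between all strains. The same ratios were 2.52 (0.911 to 8.01) for Tac111 to B6 and 1.91 (0.690 to 6.07) for Tac146 to B6.

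Muc5b (chr7:141839070-141873084) was counted 0 times in the 3 B6 libraries, 0, 0 and 1 times in Tac111 and 2, 2 and 1 times in Tac146. Pip, the prolactin-induced protein of glands (chr6:41847535-41852065), had 1 count in Tac146 replicate 4 and 0 in the 8 other libraries. Bpifa1, an airway and oral secretory protein (chr2:154142880-154149219), had 0 counts in all 9 libraries, which allows a level of up to 0.0661 to 0.108 CPM, depending on the library. At these counts no difference between strains was detectable for Pip or Bpifa1.

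**Figure D2:**
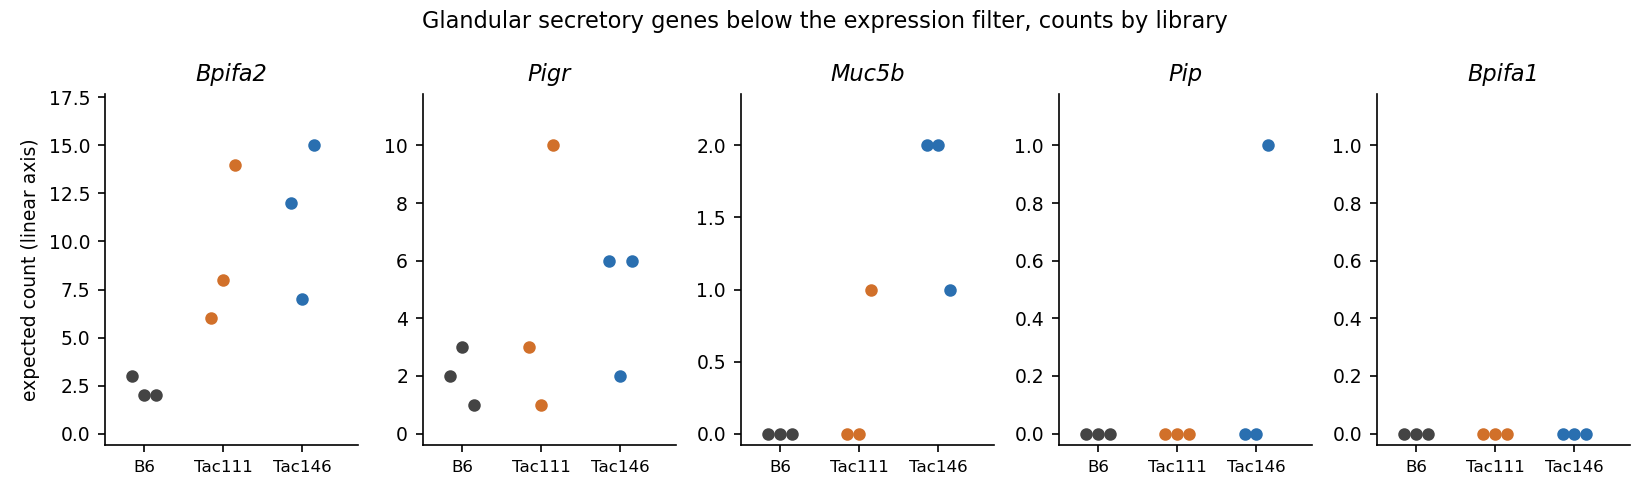
Expected counts per library on a linear axis for the 5 secretory genes below the filter, by strain; each point is a library and the axes differ between panels. Bpifa2 had 2 to 3 counts in B6 and 6 to 15 in the other strains, and Bpifa1 had 0 everywhere.

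Set per kilobase of exon, the order of mean levels over all 9 libraries was Lyz1 (9.37 CPM per kb), Ltf (3.80), Wfdc18 (2.40), Lpo (0.798), Bpifa2 (0.105), Bhlha15 (0.0855), Pigr (0.0258), Muc5b (0.00116) and Pip (0.00103), with Bpifa1 at 0. The order differed by strain, and in Tac146 Bhlha15 (0.188 ± 0.0377 CPM per kb) stood above Bpifa2 (0.135 ± 0.0289). In B6, Wfdc18 (2.66 ± 0.929 CPM per kb) and Ltf (2.48 ± 0.308) did not differ beyond their spread (SD, n = 3 each). Lpo per kilobase stood at 0.180 ± 0.119 in B6, 0.0560 ± 0.0319 in Tac111 and 2.16 ± 0.541 in Tac146, where it passed Wfdc18 (1.64 ± 0.226) by less than the summed spread. In Tac111, Bpifa2 (0.147 ± 0.0535 CPM per kb) stood above Lpo, and in B6 below it. Lyz1 and Ltf were the most abundant pair in Tac111 and Tac146.

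By edgeR at an adjusted p threshold of 0.05, 0 of the 5 tested secretory genes were called in Tac111 against B6, where 3.81% of the 16523 tested genes were called (1.02% higher and 2.8% lower in Tac111). In Tac146 against B6, 1 of 5 was called (Lpo), where 0.303% of all tested genes were called (0.194% higher and 0.109% lower in Tac146). In Tac111 against Tac146, 2 of 5 were called (Lpo and Bhlha15), where 8.89% were (2.62% higher and 6.27% lower in Tac111). DESeq2 called 2 (Lpo and Ltf) in Tac111 against B6, 3 (Bhlha15, Lpo and Ltf) in Tac146 against B6 and 3 (Bhlha15, Lpo and Wfdc18) in Tac111 against Tac146. Wfdc18 was also called in Tac111 against Tac146 without a filter on low counts and without B6 replicate 1. The call of Bhlha15 in Tac111 against Tac146 was lost when Tac111 replicate 2, Tac111 replicate 3, Tac146 replicate 3 or Tac146 replicate 4 was left out, leaving 1 call each time. Since the genes were chosen with these contrasts known, nothing is read from these counts. Libraries of the groups did not overlap for Ltf alone among the 5 in Tac111 against B6 (29.6% of all tested genes, 13.7% higher and 15.9% lower in Tac111), for Lpo, Ltf, Bhlha15 and Wfdc18 in Tac146 against B6 (12.6%, of which 6.35% higher and 6.29% lower in Tac146) and for Lpo, Bhlha15 and Wfdc18 in Tac111 against Tac146 (35.4%, of which 17.1% higher and 18.4% lower in Tac111). The median log2 fold changes of the 5 were 0.11, 0.92 and -0.51 in that order, beside 0.02, 0.01 and 0.02 over all tested genes.

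**Figure D3:**
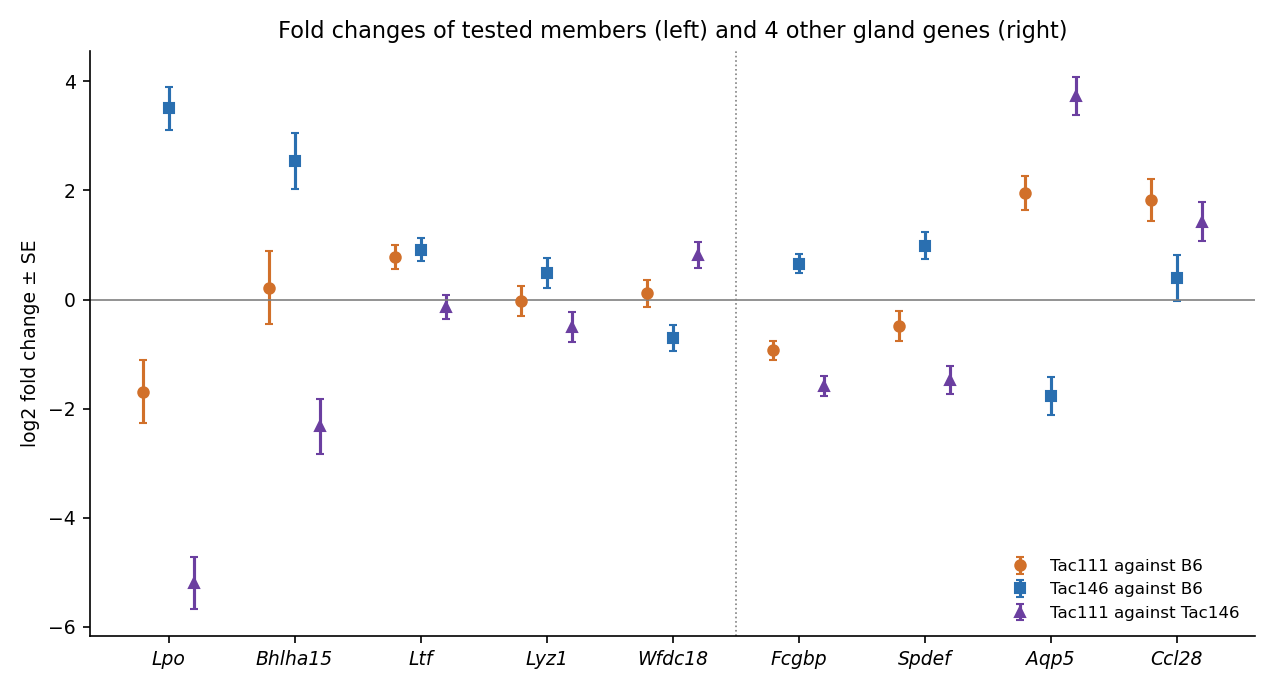
Fitted log2 fold changes with SE for the 5 tested secretory genes (left of the dotted line) and 4 other gland genes (right), for Tac111 against B6, Tac146 against B6 and Tac111 against Tac146, which share libraries. Lpo spans -5.20 to 3.51 and Aqp5 runs opposite to it, from -1.77 to 3.73.

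Beside the 10 genes stood 114 other genes of gland lists, of which 19 were at 0 in all libraries and 59 were tested. Like the 10, all gene lists were chosen with earlier results of these data known. Their counts of calls and the adjusted p-values of their genes are therefore descriptions only. EdgeR called 6 of the 59 in Tac111 against B6 (4 higher in Tac111 and 2 lower), 0 in Tac146 against B6 and 12 in Tac111 against Tac146 (3 higher in Tac111 and 9 lower). Over all tested genes the shares called were 3.81%, 0.303% and 8.89% in that order. In Tac146 against B6, 9 of the 59 had an unadjusted p under 0.05 and DESeq2 called 1, Aqp5. The medians of the 59 were -0.04, 0.06 and 0.03 on the log2 scale in the same order, beside the 0.02, 0.01 and 0.02 of all tested genes. The 6 calls of Tac111 against B6 became 2 without B6 replicate 2, Tac111 replicate 2 or Tac111 replicate 3, and the 12 of Tac111 against Tac146 became 6 with Tac111 replicate 2 left out, 5 with Tac111 replicate 3 left out and 7 with Tac146 replicate 3 left out. Under every alternative run, Aqp5 kept its call in Tac111 against B6, and Aqp5, Bpifa5, Fcgbp, Myh11 and Spdef kept theirs in Tac111 against Tac146. Each of the other calls in these comparisons was lost under at least 1 alternative. With a replicate block Tac111 against Tac146 gave 10 calls, 5 higher and 5 lower in Tac111, without those of Ccl28, Creb3l1, Mylk, Scnn1a, Wfdc5 and Xbp1.

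Among other gland secretions, 8 of 26 were tested. Fcgbp, a mucin-like protein secreted with mucus, stood at 90.2, 72.1 and 57.9 CPM in B6, 36.7, 34.7 and 44.2 CPM in Tac111 and 139, 112 and 95.9 CPM in Tac146, without overlap between any strains. It was lower in Tac111 than in B6 (log2 fold change -0.93, SE 0.18, adjusted p 0.0164 by edgeR) and than in Tac146 (-1.58, SE 0.18, adjusted p 0.000755 by edgeR), and the difference of Tac146 from B6 did not pass (0.65, SE 0.18, adjusted p 0.340 by edgeR). Ccl28, a chemokine that draws IgA-producing cells to glands, was higher in Tac111, at 0.865, 1.05 and 1.08 CPM, than in B6 (0.262, 0.382 and 0.199 CPM) and Tac146 (0.575, 0.246 and 0.264 CPM). The log2 fold changes were 1.82 (SE 0.39, adjusted p 0.0264 by edgeR) against B6 and 1.43 (SE 0.36, adjusted p 0.0392 by edgeR) against Tac146. Both calls were lost under the filter of 1 CPM and when any B6 or Tac111 library was left out. The call against Tac146 was also lost with a replicate block, with only the 6 libraries compared, and without Tac146 replicate 3 or Tac146 replicate 4. Egf, a growth factor of saliva, stood at 19.7, 16.9 and 16.8 CPM in B6, Tac111 and Tac146 and was not called.

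Of 20 acinar channels and regulators 16 were tested. Aqp5, the apical water channel of acinar cells, stood at 3.32, 6.29 and 6.82 CPM in B6, 16.4, 19.4 and 27.5 CPM in Tac111 and 1.39, 1.01 and 2.29 CPM in Tac146, so that no libraries of different strains overlapped. Its log2 fold change was 1.96 (SE 0.31, adjusted p 0.00697 by edgeR) for Tac111 against B6 and 3.73 (SE 0.35, adjusted p 0.00022 by edgeR) for Tac111 against Tac146. This order of means was opposite to that of Lpo, whose B6 and Tac111 libraries overlapped. The secretory cell factors Spdef (-1.47, SE 0.26, adjusted p 0.00907 by edgeR), Xbp1 (-0.43, SE 0.09, adjusted p 0.0207 by edgeR) and Creb3l1 (-0.73, SE 0.15, adjusted p 0.0211 by edgeR) were lower in Tac111 than in Tac146. The calls of Xbp1 and Creb3l1 were lost without Tac111 replicate 2 or Tac111 replicate 3, and that of Xbp1 also without Tac111 replicate 1 or Tac146 replicate 3. Spdef stood at 1.77, 1.01 and 1.56 CPM in B6, 1.19, 0.722 and 1.19 CPM in Tac111 and 2.52, 3.04 and 3.13 CPM in Tac146. The 2 most abundant genes of the list, the vesicle protein Rab3d and the epithelial factor Ehf, were not called, at 238, 200 and 247 CPM and 223, 175 and 257 CPM in B6, Tac111 and Tac146.

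Duct genes were called in both directions, and the myoepithelial genes called were lower in Tac111. The duct list had 9 tested genes of 14, and Elf5, a regulator of duct and mammary epithelium, was higher in Tac111 than in B6 (116 against 71.0 CPM, log2 fold change 0.71, SE 0.13, adjusted p 0.0155 by edgeR), as was the simple epithelial keratin Krt7 (0.63, SE 0.15, adjusted p 0.0499 by edgeR). The call of Krt7 lay at the threshold and was lost with median-ratio scaling, the filter of 1 CPM and the fit of the 6 libraries compared, and when any library but Tac111 replicate 1 or Tac146 replicate 4 was left out. Krt19, another such keratin, was higher in Tac111 than in Tac146 (1.07, SE 0.21, adjusted p 0.0165 by edgeR), and the sodium channel subunit Scnn1a was lower (-0.66, SE 0.16, adjusted p 0.0327 by edgeR). Of the 5 contractile genes of myoepithelium, all of them tested, the smooth muscle myosin Myh11 was lower in Tac111 than in B6 (-0.76, SE 0.15, adjusted p 0.0165 by edgeR) and Tac146 (-0.89, SE 0.14, adjusted p 0.00642 by edgeR), and the kinase Mylk was lower than in Tac146 (-0.62, SE 0.15, adjusted p 0.0327 by edgeR). Smooth muscle of vessels expresses these contractile genes too. The actin gene Acta2 was not called, at 32.7, 29.1 and 33.7 CPM in B6, Tac111 and Tac146.

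**Figure D4:**
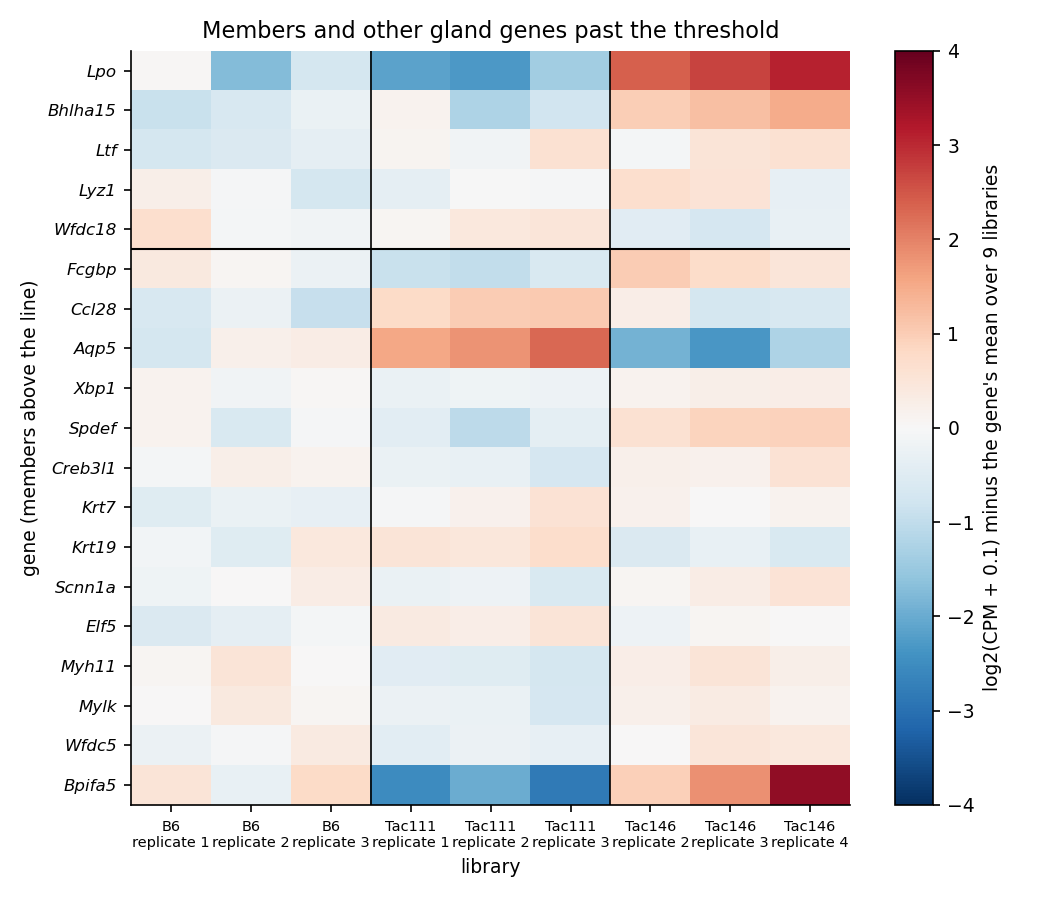
Colour gives log2(CPM + 0.1) minus the mean of each gene over the 9 libraries, for the 5 tested secretory genes (above the horizontal line) and the gland genes called in any comparison (below it), with libraries in columns by strain. Lpo is highest in the 3 Tac146 libraries, Aqp5 in the 3 Tac111 libraries and Bpifa5 in Tac146 replicate 4.

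Relatives of the secretory genes were measured by family. Of 14 BPI fold genes 4 were tested, and Bpifa5 was lower in Tac111 than in Tac146 (log2 fold change -5.84, SE 0.86, adjusted p 0.00342 by edgeR), at 0.0961, 0.181 and 0.0581 CPM against 2.08, 3.87 and 13.1 CPM. Tac146 replicate 4 held the highest of these values, and the B6 libraries stood between at 1.48, 0.80 and 1.79 CPM. Bpifc and Lbp, the most abundant of the family, were not called. Bpifb1, a long family member of airway and oral glands, was counted 1, 1 and 0 times in B6, 0, 1 and 0 times in Tac111 and 2, 0 and 2 times in Tac146, and Bpifb2 had no count in any library. Of 18 WAP domain and lysozyme genes 11 were tested, and Wfdc5, a WAP protein of epidermis, was lower in Tac111 than in Tac146 (112 against 178 CPM, -0.67, SE 0.16, adjusted p 0.0349 by edgeR). The antiprotease Slpi was the most abundant of them, at 1123, 1086 and 1389 CPM in B6, Tac111 and Tac146, and was not called. Lyz2 was counted 6282.88, 3623 and 3217.05 times in B6, 3081.89, 2474.55 and 3777.9 times in Tac111 and 6306.26, 4375.04 and 3112.54 times in Tac146, and was not called in any comparison. Of 12 other mucins 2 were tested, the membrane mucins Muc15 (33.6 CPM over all libraries) and Muc1 (0.725 CPM), and edgeR called 0 in every comparison, with 0 under the threshold before adjustment.

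Lists of other cells that the biopsies could hold were tested too. In Tac111 against Tac146, where 8.89% of all tested genes were called, edgeR called 1 of 3 airway genes, 2 of 10 macrophage genes and 1 of 7 squamous genes, beside the 4 of 7 neutrophil and 2 of 8 sebaceous genes above. Of 3 tested airway genes, the secretoglobin Scgb1a1 was higher in Tac111 than in Tac146 (204 against 74.0 CPM, log2 fold change 1.46, SE 0.36, adjusted p 0.0357 by edgeR), and Tppp3 and Scgb3a2 were not called. Dnah5, which ciliated cells need, was at 0 and not tested. Of 10 macrophage genes, Adgre1 (-0.83, SE 0.23, adjusted p 0.0498 by edgeR) and Csf1r (-0.74, SE 0.19, adjusted p 0.0424 by edgeR) were lower in Tac111 than in Tac146, while Lyz2 was not called. Of 7 squamous genes, Dsg3, a desmosome protein, was lower in Tac111 than in Tac146 (292 against 533 CPM, -0.87, SE 0.17, adjusted p 0.0161 by edgeR). Krt4 and Krt13 were not called in any comparison.

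Genes with the pattern most like that of each tested secretory gene were found by Pearson r on log2(CPM + 1) over the 9 libraries, which share strain and depth. The 3 most like Lpo were Sprr2e (r 0.998), Sprr2g (0.992) and Sprr2f (0.990), small proline-rich proteins that squamous cells cross-link into their cornified envelope. With the mean of each strain removed, r was 0.966, 0.911 and 0.849. Sprr2e stood at 1.01, 0.0348 and 0.364 CPM in B6, 0, 0.0361 and 0.0581 CPM in Tac111 and 5.58, 6.77 and 10.9 CPM in Tac146. In B6, Lpo and these 3 genes had their lowest level in replicate 2, and in Tac146 their highest in replicate 4. Since these genes were picked for their likeness, their differences between strains carry no test.

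**Figure D5:**
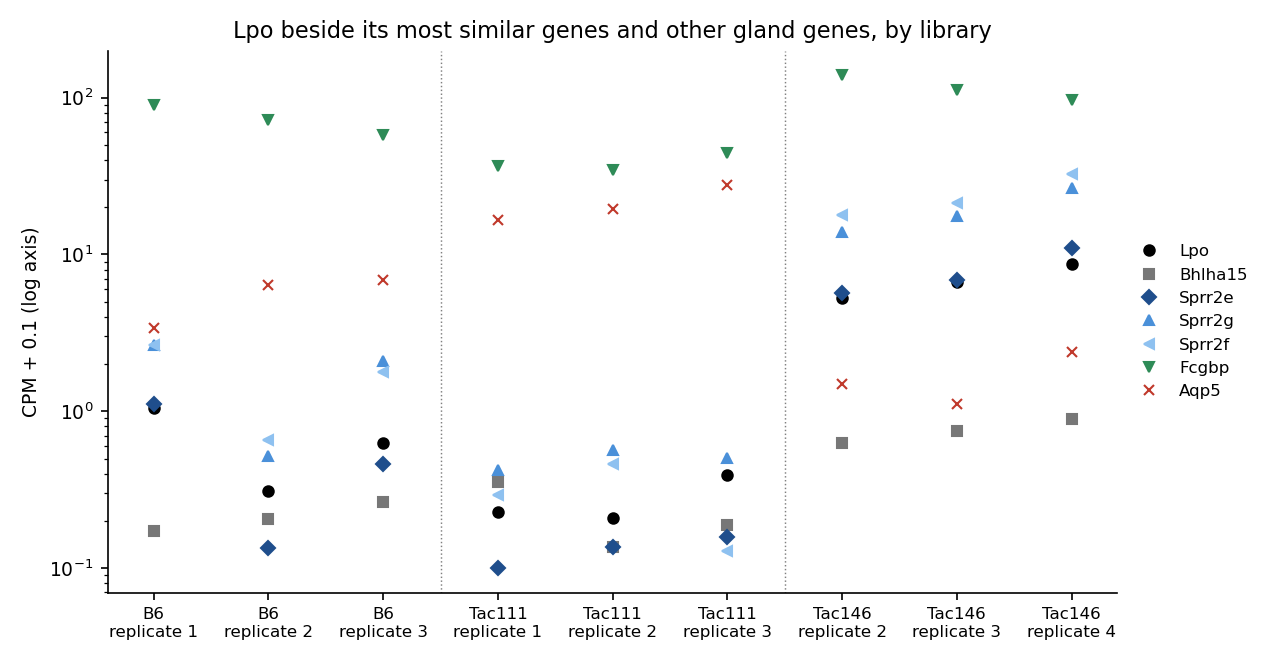
Level (CPM + 0.1, log axis) in each of the 9 libraries of Lpo, Bhlha15, the 3 genes most like Lpo (Sprr2e, Sprr2g, Sprr2f), Fcgbp and Aqp5. Lpo and the 3 Sprr2 genes are high in Tac146, while Aqp5 is lowest there and highest in Tac111.

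The genes most like Bhlha15 were the urate oxidase gene Uox (r 0.974), Rag1 (0.960) and the serpin Serpinb3b (0.958), and r with strain means removed fell to 0.755, 0.691 and 0.778. For Ltf they were the metallothionein Mt2 (0.941), the glutathione transferase Gsta4 (0.922) and Syt8 (0.920). For Lyz1 they were Smim3 (0.974), the epidermal gene Flg2 (0.965) and Cyp2b10 (0.961), with 0.991, 0.967 and 0.965 within strains. For Wfdc18 they were Dgat2l6 (0.961), Pdap1 (0.943) and the lipid droplet gene Plin2 (0.943). No gene was named for more than 1 of the 5, and among the 5 themselves Lpo with Bhlha15 gave the highest r.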

How the data were processed

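The 9 libraries of labial mucosa RNA were made with a stranded mRNA kit, per the labels' protocols. For each library the authors deposited a file of expected counts, which need not be whole, by gene symbol. STAR, RSEM and GRCm38 were used, per the submitters' processing notes. The sources used here do not give versions, annotation or strand setting, so reads of overlapping, antisense and near-identical genes may be shared. Each file held 55450 lines with 55342 names, 107 symbols on several lines were summed, 27 lines held names like dates, and 2710 to 3195 values per library were not whole.

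The 10 genes and all gene lists were chosen with earlier results of these data known. Expected counts were rounded and fitted with edgeR 4.0.16 in R 4.3.3 (quasi-likelihood test, TMM factors, its own filter on low counts) to all 9 libraries with a mean for each strain, leaving 6 residual degrees of freedom and 16523 tested genes. Benjamini-Hochberg adjustment ran over these genes, with a threshold of 0.05. The SE is approximate, from the log2 fold change and its F statistic. CPM use TMM-scaled library sizes, limits for genes at 0 take 3 counts per library, and 95% intervals of count ratios are exact. Both cover counting error only. The fit was first tested on simulated counts with 200 changed genes.

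Named genes were the 10, those of each list called in any comparison or among its 2 highest means, 5 relatives (Mpo, Epx, Lyz2, Bpifb1, Bpifb2), the 3 genes most alike to each tested secretory gene without predicted genes, and Il2rg, Rag1 and Rag2. Others were named after their values were seen, and a gene that the rule takes is not reported here. Coordinates and exon lengths came from GENCODE M21 (GRCm38) by symbol, and promoters from RefSeq (9 of the 10 genes matched). Alternatives were other scalings, other filters on low counts, DESeq2 1.42.0, a fit of only the 6 libraries compared, a replicate block and each library left out in turn. Same-numbered libraries did not deviate together throughout, so replicate numbers were not treated as pairs. Python 3.11.15, pandas 2.3.3 and matplotlib 3.10.9 were used for tables and figures.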

Additional observations from a re-analysis of the deposited data

How the results depend on the processing

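Lpo was called in Tac146 against B6 (log2 fold change 3.15 to 4.17) and in Tac111 against Tac146 (-5.79 to -4.97) under every alternative run. These runs reuse the 9 libraries with which Lpo was chosen, so its repeated calls are no further support. Some fold changes of the 5 tested genes moved by more than the SE of the main fit. For Tac146 against B6, leaving out B6 replicate 1 moved Lpo from 3.51 (SE 0.40) to 4.17. The same fit moved Wfdc18 from -0.71 (SE 0.24) to -0.37. The 2 largest moves were those of Bhlha15 without Tac111 replicate 1 (to -0.75 for Tac111 against B6 and to -3.29 for Tac111 against Tac146). Fold changes that were not called and lay near 0 changed sign under some alternatives. For Tac111 against B6 these were Lyz1 (-0.02, with 0.20 at the other end), Bhlha15 (0.21 and -0.75) and Wfdc18 (0.11 and -0.04), and for Tac111 against Tac146 Ltf (-0.14 and 0.05). No called fold change reversed. Low counts limit Bhlha15, Bpifa2, Pigr and Muc5b, and 3 libraries per strain limit every test.

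The counts of calls moved as follows. For Tac111 against B6, all genes called (630) became 1020 without a filter and 1171 with DESeq2, and 295 to 958 with a library left out. Its secretory genes called (0) became 2 without a filter or with DESeq2, 1 with only the 6 libraries of the comparison, and 0 to 1 with a library left out (Bpifa2 without Tac111 replicate 1 and Ltf without Tac146 replicate 2), and its other gland genes (6) ran from 2 to 7. For Tac146 against B6, all genes called (50) became 129 without a filter, 26 with only the 6 libraries and 126 with DESeq2, and 33 to 64 with a library left out. Its secretory genes (1) became 3 without a filter or with DESeq2, and its other gland genes (0) became 3 without a filter (Aqp5, Bpifa5 and Fcgbp) and 1 (Aqp5) with DESeq2, and 0 to 1 with a library left out (Aqp5 without B6 replicate 1 or Tac146 replicate 4). For Tac111 against Tac146, all genes called (1469) became 641 with only the 6 libraries and 2568 with DESeq2, and 470 to 1829 with a library left out. Its secretory genes (2) became 1 under a filter of 1 CPM in 3 libraries, which left Bhlha15 out, and ran from 1 to 3 with a library left out, and its other gland genes (12) ran from 5 to 14.

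Same-numbered libraries correlated at -0.18 to 0.31, and only 2 of 7 pairs passed 0.1, so the numbers were not taken as pairs. With a replicate block, Tac111 against B6 gave 1 secretory gene (Ltf) and 10 other gland genes, Tac146 against B6 gave 1 other gland gene (Aqp5), and Tac111 against Tac146 gave 632 genes in all, 1 secretory gene (Lpo) and 10 other gland genes. The cause of these moves was not tested.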

Other observations

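The neighbourhood of the secretory genes was examined after their values were seen. Within 250 kb of the 10 genes lay 58 tested neighbours, counted per gene, of which edgeR called 1 in Tac111 against B6, 0 in Tac146 against B6 and 5 in Tac111 against Tac146. Over all tested genes the shares called were 3.81%, 0.303% and 8.89% in that order, and nothing is read from these counts. The 8 tested neighbours of Lpo had log2 fold changes between -0.29 and 0.53 over the 3 comparisons, and 0 were called. The 7 tested neighbours of Bhlha15 also gave 0 calls. The called neighbours were Ccl5 near Wfdc18 in Tac111 against B6, and, in Tac111 against Tac146, Als2cl and Lrrc2 near Ltf, Mmp28 near Wfdc18 and Bpifa5, which lies near both Bpifa1 and Bpifa2 and was counted for each.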
